A study of Mus musculus with 96 samples.

Results

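The Cyp2c subfamily of cytochrome P450 genes was followed in the liver of mice fed a high-fat diet (HFD) or a chow diet (CD). The rows of Cyp2c29, Cyp2c37, Cyp2c38, Cyp2c39, Cyp2c40, Cyp2c44, Cyp2c50, Cyp2c54, Cyp2c55 and Cyp2c70 were taken by symbol, which gave 10 of the 20155 genes with values and 10 of the 15 Cyp2c genes among them. The mice were male C57BL/6N animals bought at 4 weeks of age. CD was LabDiet 5001 with 13.5% fat and HFD was Research Diets D12492 with 60% fat. The feeds were different products, which also differ in protein, carbohydrate, minerals and vitamins, so fat content and these other differences cannot be told apart. Livers of 4 HFD and 4 CD mice were taken at each of weeks 4, 8, 12, 16, 20 and 24 on the diet, which gives 48 liver libraries from 48 mice. Islets of the same mice were sequenced too and serve here only as a second tissue in which the genes can be looked up. Mice are named by diet and number, such as HFD517.

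Cytochromes P450 of the Cyp2c subfamily sit in the endoplasmic reticulum of hepatocytes, take electrons from the reductase encoded by Por, and insert oxygen into drugs, steroids, retinoids and fatty acids. Several of the mouse enzymes are epoxygenases, which turn arachidonic acid into epoxyeicosatrienoic acids, lipid mediators that epoxide hydrolases then inactivate. Their transcription in liver is known to depend on HNF4A and on the xenobiotic receptors CAR and PXR, and most of the enzymes are strongest in the hepatocytes around the central vein.

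All 10 genes lie on chromosome 19. In the coordinates of the deposited table (GRCm38), 9 of them fall between 39006938 and 40187286, and Cyp2c44, which RefSeq calls Cyp2c23, lies apart from them at chr19:44005022-44029256. By the GENCODE annotation each gene has 9 exons and a coding sequence of 1470 to 1563 bases. Cyp2c37 and Cyp2c50 shared 96.1% of their coding bases, Cyp2c54 shared 95.2% with Cyp2c50 and 95.1% with Cyp2c37, and Cyp2c38 shared 94.2% with Cyp2c39. Cyp2c29 shared 89.5% with Cyp2c39 and 89.1% with Cyp2c38. Cyp2c40, whose coding sequence is longer, shared 92.5% with Cyp2c69, a gene outside the 10, and 46.3% of the 50-base windows of Cyp2c69 recur in it. A stretch of 60 coding bases (1267 to 1326, across the join of exons 8 and 9 and around the loop that holds the haem) shows how little separates these transcripts; capitals mark bases that differ from the first gene of each trio, which differ at 3 to 5 of the 60 positions.
Cyp2c50: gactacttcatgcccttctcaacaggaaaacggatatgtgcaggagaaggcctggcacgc
Cyp2c54: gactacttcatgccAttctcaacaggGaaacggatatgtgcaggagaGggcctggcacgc
Cyp2c37: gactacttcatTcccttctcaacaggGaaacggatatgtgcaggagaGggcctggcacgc
Cyp2c29: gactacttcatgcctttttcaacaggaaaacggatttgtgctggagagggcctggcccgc
Cyp2c38: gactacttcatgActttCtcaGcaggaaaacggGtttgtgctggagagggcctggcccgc
Cyp2c39: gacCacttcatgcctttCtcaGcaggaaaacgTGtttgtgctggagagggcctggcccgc

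The exon 9 part of these stretches lies at chr19:40113434-40113468 on the plus strand for Cyp2c50, chr19:40038384-40038418 on the minus strand for Cyp2c54 and chr19:40011727-40011761 on the plus strand for Cyp2c37. For Cyp2c29 it is at chr19:39330252-39330286 (plus), for Cyp2c38 at chr19:39391078-39391112 (minus) and for Cyp2c39 at chr19:39568013-39568047 (plus). Over whole transcripts, the share of 50-base windows found unchanged in another Cyp2c transcript was 72.1% for Cyp2c40, 30.7% for Cyp2c50, 30.1% for Cyp2c37, 25.7% for Cyp2c54, 11.4% for Cyp2c39, 7.4% for Cyp2c38 and 0.5% for Cyp2c29. It was 0 for Cyp2c44, Cyp2c55 and Cyp2c70. Reads from the shared windows can be credited to the wrong copy, so the single values of Cyp2c40 and of the trio Cyp2c37, Cyp2c50 and Cyp2c54 are uncertain as single genes, and sums are given beside them. The table's model of Cyp2c54 is also wide, spanning 127333 bases against 35907 in RefSeq, and it overlaps that of Cyp2c37. Its model of Cyp2c40 likewise overlaps those of Cyp2c69 and Cyp2c68. The model of Cyp2c38 pools 7 transcripts, 5 of them unnamed, and spans 78387 bases against 73548 in RefSeq.

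The 250 bases before the start site were available from RefSeq (GRCm38.p6) for 8 of the 10 genes, Cyp2c44 and Cyp2c54 having no entry. Cyp2c39 had a further window at another start site. Only the window before its start in the deposited table was used. The letters CAAAGTC, the core of a binding element of the HNF4 type, were found on either strand in 5 of the 8 windows, those of Cyp2c29, Cyp2c37, Cyp2c39, Cyp2c40 and Cyp2c70, against 3.84% of 32851 windows of all genes. This motif was added after the sequences had been seen. The longer CAAAGTCCA contains it and was present in the windows of Cyp2c40 and Cyp2c70, against 0.38% of all windows. The windows from 120 to 31 bases before the start site are shown for the genes of the main cluster that the results turn on, with CAAAGTC in capitals.
Cyp2c29: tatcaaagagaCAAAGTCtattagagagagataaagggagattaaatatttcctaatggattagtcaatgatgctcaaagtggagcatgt
Cyp2c38: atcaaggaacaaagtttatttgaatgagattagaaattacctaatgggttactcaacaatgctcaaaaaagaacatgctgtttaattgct
Cyp2c39: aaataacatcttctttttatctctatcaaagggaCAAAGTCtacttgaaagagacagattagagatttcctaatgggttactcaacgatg
Cyp2c37: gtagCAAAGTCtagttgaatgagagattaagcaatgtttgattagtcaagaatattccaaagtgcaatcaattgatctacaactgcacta
Cyp2c50: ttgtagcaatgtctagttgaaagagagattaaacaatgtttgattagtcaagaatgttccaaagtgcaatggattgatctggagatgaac
Cyp2c40: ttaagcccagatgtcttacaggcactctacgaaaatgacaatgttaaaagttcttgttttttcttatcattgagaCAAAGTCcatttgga
Cyp2c70: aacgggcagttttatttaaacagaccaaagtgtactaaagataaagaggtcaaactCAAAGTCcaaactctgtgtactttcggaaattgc

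These windows are chr19:39286965-39287054 (plus strand) for Cyp2c29, chr19:39463106-39463195 (minus) for Cyp2c38, chr19:39510702-39510791 (plus) for Cyp2c39 and chr19:39992304-39992393 (plus) for Cyp2c37. Those of Cyp2c50, Cyp2c40 and Cyp2c70 are chr19:40089559-40089648 (plus), chr19:39812845-39812934 (minus) and chr19:40187317-40187406 (minus). The pairs with alike coding sequences also had alike windows: over the 250 bases Cyp2c37 and Cyp2c50 were 84.3% identical, Cyp2c38 and Cyp2c39 71.0%, and Cyp2c29 and Cyp2c38 68.8%. The nuclear receptor half-site AGGTCA was found in 2 of the 8 windows (14.02% of all windows), the half-site AGTTCA in 3 (11.84%) and the STAT5-type TTCNNNGAA in none (7.02%), all read on both strands. The window of Cyp2c39 that was left aside holds AGGTCA and no AGTTCA, the reverse of the one used, so both counts depend on that choice. A match is only a run of letters, and binding was not measured.

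The liver libraries were alike in scale: their FPKM summed to between 560016 and 672369, the lowest median correlation of a library with its own group was 0.972, and no 2 held identical values. Read depth is unknown from the files used here, so no counting error can be given.

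Expression is given as FPKM, a fragment count scaled for transcript length and library size, which allows levels to be set side by side between genes of different length. In the 24 CD livers the order of the levels was led by Cyp2c29 at 623 ± 170 FPKM (SD, n = 24), followed by Cyp2c50 at 408 ± 78.9, Cyp2c70 at 283 ± 160, Cyp2c37 at 202 ± 74.6, Cyp2c54 at 189 ± 41.4 and Cyp2c44 at 161 ± 49.2 FPKM. Cyp2c38 stood well below them at 19.6 ± 7.51 FPKM, and Cyp2c40 (4.66 ± 3.42), Cyp2c39 (1.00 ± 0.63) and Cyp2c55 (0.98 ± 0.57) were the scarce ones. The ranges of neighbours in this order overlapped at every step but 1, since the lowest CD liver for Cyp2c44 had 97.9 FPKM and the highest for Cyp2c38 had 41.5 FPKM. In the 24 HFD livers Cyp2c29 and Cyp2c50 had close mean levels, 270 ± 124 and 269 ± 93.6 FPKM, and Cyp2c38 reached 42.6 ± 24.4 FPKM.

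**Figure D1:**
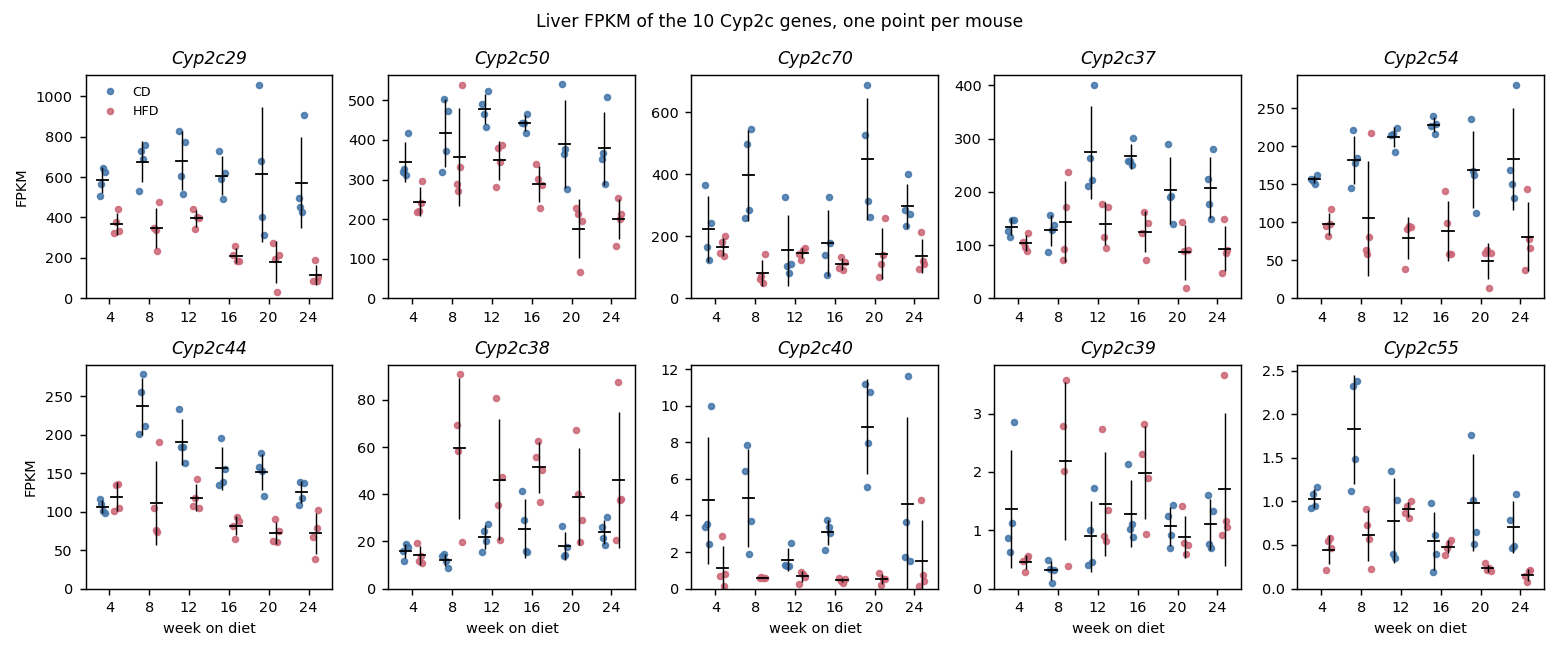
FPKM of each of the 10 Cyp2c genes (vertical axis, own scale per panel, starting at 0) in the liver of each mouse, by week on the diet; points are mice (CD blue, HFD red), short lines are means of 4 mice and vertical bars are 1 SD, cut off at 0. Cyp2c29 lies between 32.0 and 276 FPKM in HFD livers at week 20 and between 85.2 and 191 at week 24, and the HFD mean of Cyp2c38 lies above the CD mean from week 8 on.

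The question put to these data was how the diet changes the liver's transcripts over 24 weeks. For each gene the 6 weekly differences between HFD and CD were first averaged in 1 limma fit of all 48 livers on log2(FPKM + 1), a scale on which the change of genes near 1 FPKM is understated. In this mean effect 8 of the 10 genes fell and 1 rose at an adjusted p under 0.05, against 6.78% of the 10879 tested genes that fell and 35.8% that rose. Cyp2c40 fell by 1.53 on the log2 scale (SE 0.17, adjusted p = 4.8e-09), Cyp2c29 by 1.37 (SE 0.15, adjusted p = 6.2e-09), Cyp2c54 by 1.30 (SE 0.16, adjusted p = 2.3e-08) and Cyp2c70 by 0.98 (SE 0.17, adjusted p = 1.2e-05). Smaller decreases were those of Cyp2c37 (-0.86), Cyp2c44 (-0.76), Cyp2c50 (-0.67) and Cyp2c55 (-0.40). Cyp2c38 was the member that rose, by 0.92 (SE 0.16, adjusted p = 1.7e-05), and its near-copy Cyp2c39 had 0.24 (SE 0.12, adjusted p = 0.11). The median of the 10 was -0.81, against 0.08 over all tested genes. Leaving out any 1 of the 48 livers kept 9 or 10 genes past the threshold, the tenth being Cyp2c39 without CD106 (adjusted p = 0.044) or HFD217 (adjusted p = 0.024).

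In bulk liver, fewer cells of a type and less RNA per cell cannot be told apart, so markers were read beside these values. The counts below are of markers past the threshold in the mean effect, where 35.8% of all genes rose and 6.78% fell. Of 8 hepatocyte markers 1 fell (Fgb), none rose, and their summed level ranged from 60752 to 91577 FPKM in CD and from 57390 to 78184 FPKM in HFD livers. Of 9 pericentral markers 2 rose (Glul and Lect2) and 2 fell (Oat and Cyp1a2), with sums of 4680 to 10862 FPKM in CD and 4136 to 9407 in HFD. Of 8 periportal markers 6 fell and 1 rose, with sums of 2225 to 7476 FPKM in CD and 2508 to 5638 in HFD. All 7 stellate cell markers rose (sums of 29.1 to 94.8 FPKM in CD and 52.5 to 147 in HFD), as did 6 of 9 macrophage markers (36.2 to 131 and 44.8 to 181 FPKM). In the lists of 6 endothelial, 3 tested bile duct and 2 tested intestinal markers 1 gene each rose, and none of 1 tested lymphocyte, 8 pancreatic acinar and 4 erythroid markers passed. The part of these shifts in the Cyp2c values was not tested.

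Week by week, the counts of the 10 genes that passed were uneven. At week 4 none of 8 tested genes passed (0.0506% of all genes did, in either direction), and 2, Cyp2c29 and Cyp2c54, had adjusted p of 0.092 and 0.077, with an unadjusted p under 0.05 in limma for 5 of the 8. Week 8 had 5 lower and 1 higher of 9 tested, against 1.33% and 6.17% of all genes. Week 12 had 5 lower of 9 (1.22% of all genes), week 16 had 6 lower of 9 (0.682%), week 20 had 2 lower of 8 (0.746%) and week 24 had 1 lower of 9 (0.187%). Of the tested genes, Cyp2c40 at weeks 8, 12, 16 and 20 and Cyp2c55 at week 8 met the filter through CD livers alone. Their HFD livers were all below 1 FPKM there, so they could be tested only where CD was high. No member passed as higher at weeks 12, 16, 20 and 24, when 9.42%, 6.74%, 1.73% and 0.650% of all genes did. Over all 6 weeks 41 of 52 tested values were below 0, and in 31 all HFD livers lay below all CD livers. By week these were 3, 5, 6, 6, 6 and 5 genes, against 2.03%, 3.69%, 3.49%, 1.97%, 2.51% and 1.92% of all genes. In 1 of the 52, Cyp2c38 at week 8, all HFD livers lay above all CD livers, and the shares of all genes with this were 5.85%, 11.4%, 14.6%, 11.9%, 6.58% and 8.14% from week 4 to week 24. At week 20 the groups were thus apart with HFD lower for 6 genes while 2 passed the test, all 8 tested genes having an unadjusted p under 0.05. The share of all genes at an unadjusted p under 0.05 was not counted. The counts at that cut for weeks 4 and 20 therefore stand without it and are no result about these genes.

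Single livers moved these counts. That of week 8, 6 in both directions, was 2 without CD205, CD207, CD208, HFD211 or HFD212, 3 without HFD213 and 8 without HFD217. That of week 12 was 3 without CD306, 2 without HFD315 and 1 without CD307, CD308 or HFD318. At week 20 it was 4 without HFD518, and at week 24 it was 0 without CD601 or HFD617 and 3 without HFD614. In 1 fit of all 12 groups, which pools the spread, week 20 had 8 lower genes, week 24 had 3 and week 12 had 2. That fit tested all 10 genes in each week, whereas the weekly fits tested 8 at week 20 and 9 at weeks 12 and 24. The share of all genes called by week in that fit was not counted, so these counts stand without it.

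Cyp2c29, a prominent epoxygenase and a target of CAR, carried the largest loss in FPKM. At week 4 the CD livers had 504, 565, 646 and 627 FPKM and the HFD livers 322, 375, 440 and 331. By week 16 they had 728, 591, 489 and 621 FPKM on CD and 215, 261, 186 and 185 on HFD. The week 24 values were 497, 453, 430 and 905 FPKM on CD and 85.2, 191, 87.9 and 104.4 on HFD. Every HFD liver lay below every CD liver of its week in all 6 weeks, and the ratio of the means went from 0.627 at week 4 to 0.349 at week 16 and 0.205 at week 24. The CD means stayed between 571 and 681 FPKM. In the weekly limma fits Cyp2c29 fell at weeks 8 (-0.98, adjusted p = 0.025), 12 (-0.76, adjusted p = 0.018), 16 (-1.52, adjusted p = 0.00035) and 24 (-2.29, adjusted p = 0.012). The week 4 value was -0.68 (adjusted p = 0.092). Week 20 gave -1.97 (adjusted p = 0.25), where CD ranged from 312 to 1056 FPKM and HFD517 had 32.0. The call was lost in 5 of 8 leave-outs of 1 liver at week 8 (CD205, CD207, CD208, HFD211 or HFD212), in 3 at week 12 (CD308, HFD315 or HFD318), in 2 at week 24 (CD601 or HFD617) and in none at week 16. In 1 fit of all 12 groups it was lost at weeks 8 (adjusted p = 0.12) and 12 (adjusted p = 0.17), and week 20 passed (adjusted p = 0.00058).

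The mean effect on Cyp2c29 was -0.81 over weeks 4, 8 and 12 and -1.93 over weeks 16, 20 and 24. The difference between these, 1.12 (SE 0.31), had an unadjusted p of 0.00084 and an adjusted p of 0.18. None of the 10 genes passed for early against late weeks, against 0.175% of all genes, and 3 others, Cyp2c37, Cyp2c44 and Cyp2c50, had an unadjusted p under 0.05. None passed the test for any difference among weeks either (1.46% of all genes), where the lowest adjusted p were 0.062 for Cyp2c44 and 0.065 for Cyp2c55 and Cyp2c70 and 7 genes had an unadjusted p under 0.05 by limma. Without HFD217 4 genes passed this test, without CD304 3 did, and without CD101, CD203, CD401, CD405, CD505, HFD518, HFD614 or HFD617 1 did. For neither test was the share of all genes at an unadjusted p under 0.05 counted. The counts of the 10 genes at that cut stand without it.

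Cyp2c50, Cyp2c54 and Cyp2c37 form the trio of near-identical genes. At week 16 Cyp2c54 had 227, 240, 216 and 230 FPKM in the CD livers and 141, 98.8, 58.1 and 58.9 in the HFD livers. For Cyp2c50 the same livers had 444, 443, 416.4 and 465 FPKM on CD and 338, 301, 228 and 286 on HFD. The groups did not overlap for either gene, and all 3 genes passed as lower at weeks 12 and 16. Cyp2c54 fell by 1.48 (adjusted p = 0.016) and 1.45 (adjusted p = 0.014), Cyp2c37 by 0.96 (adjusted p = 0.046) and 1.15 (adjusted p = 0.016), and Cyp2c50 by 0.46 (adjusted p = 0.036) and 0.63 (adjusted p = 0.014). None of the trio passed at weeks 4, 8, 20 and 24 in the weekly fits. The week 12 call was lost in 7 of 8 leave-outs of 1 liver for Cyp2c50 (all but CD304), in 6 for Cyp2c37 (all but CD304 and HFD313) and in 2 for Cyp2c54 (CD307 or CD308), and that of Cyp2c37 at week 16 was lost without CD407. With no filter the week 12 calls of Cyp2c50 (adjusted p = 0.057) and Cyp2c37 (adjusted p = 0.066) were lost too.

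The fit of all 12 groups moved the calls of Cyp2c50 and Cyp2c37 to later weeks, while Cyp2c54 kept its calls at weeks 12 and 16. In that fit Cyp2c50 had an adjusted p of 0.21 at week 12 and 0.11 at week 16, and Cyp2c37 had 0.080 and 0.051. At week 20 all 3 passed in that fit, Cyp2c37 with an adjusted p of 0.0096, Cyp2c50 with 0.00089 and Cyp2c54 with 0.00085, and at week 24 Cyp2c50 passed with 0.026. In the weekly fits Cyp2c54 passed at week 8 without HFD217 (-1.41, adjusted p = 0.0015) and at week 20 without HFD517 (-1.41, adjusted p = 0.019) or HFD518 (adjusted p = 0.0497), and Cyp2c37 passed at week 24 without HFD614 (-1.48, adjusted p = 0.039).

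Summed over the trio, which does not depend on how reads were split among the 3, CD livers averaged 635, 727, 964, 937, 762 and 769 FPKM from week 4 to week 24 and HFD livers 446, 607, 568, 501.9, 311 and 375. The HFD livers were all below the CD livers except at week 8, where the ratio of means was 0.835 and the HFD livers ran from 421 to 996 FPKM against 551 to 882 in CD. As a description with no test, the ratio of Cyp2c54 to Cyp2c50 within a liver had a median of 0.459 in CD (range 0.389 to 0.554) and 0.289 in HFD (0.138 to 0.568). That of Cyp2c37 to Cyp2c50 had medians of 0.511 and 0.427, with wide overlap. With group means taken out, Cyp2c50 still correlated with Cyp2c54 (r = 0.91) and with Cyp2c37 (r = 0.86) over the 48 livers, and Cyp2c29 with Cyp2c50 (r = 0.82). These points share libraries and, within the trio, reads.

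**Figure D2:**
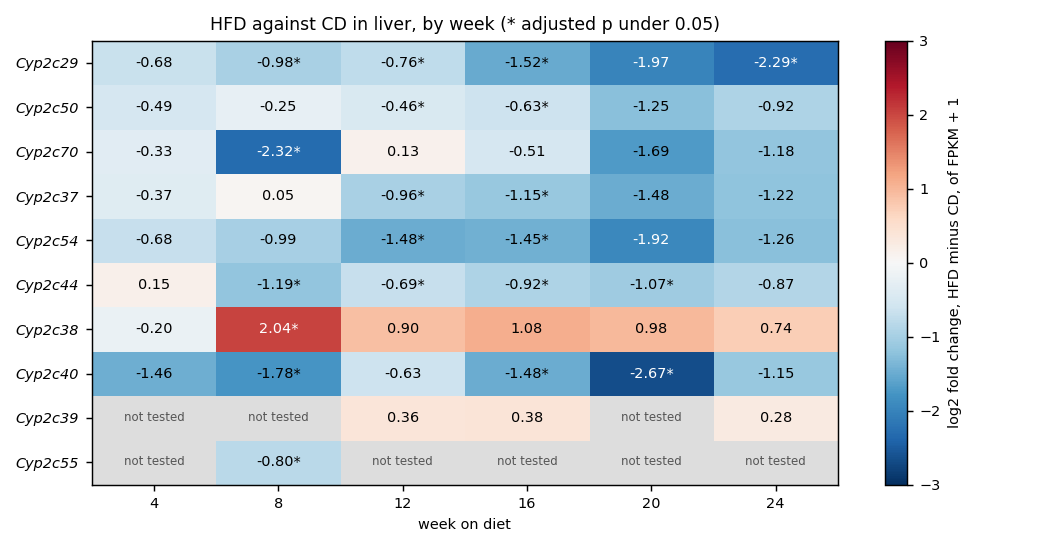
Weekly log2 fold changes of FPKM + 1, HFD minus CD (colour and printed value), for the 10 Cyp2c genes in rows and the week on the diet in columns; 4 livers per diet and week, an asterisk for an adjusted p under 0.05 and grey where too few livers reached 1 FPKM. Cyp2c29, Cyp2c54, Cyp2c40 and Cyp2c50 are below 0 in all 6 weeks, and Cyp2c38 is above 0 from week 8 on.

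Cyp2c38, an epoxygenase close to Cyp2c29, moved the other way. Its CD livers had 13.9, 14.5, 11.7 and 8.51 FPKM at week 8 and its HFD livers 69.2, 58.4, 90.8 and 19.6. At week 16 they had 41.5, 28.9, 15.9 and 15.3 FPKM on CD and 55.6, 62.7, 36.9 and 50.2 on HFD. At week 4 the diets overlapped, with CD between 11.9 and 18.8 FPKM and HFD between 10.98 and 19.5. The ratio of the means was 0.873 at week 4, 4.90 at week 8 and between 1.91 and 2.17 from week 12 to week 24. Week 8 was the one week in which all HFD livers lay above all CD livers and in which Cyp2c38 passed (2.04, SE 0.43, adjusted p = 0.032). That call was lost when any liver of the week other than HFD217 was left out, and without HFD217, the lowest HFD liver, the value was 2.49 (adjusted p = 0.00045).

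Cyp2c39, known as a retinoic acid hydroxylase, had a far lower level than Cyp2c38 and did not share its direction in every week. The directions differed at week 20 alone, where the ratio of the means was 0.831 against 2.17 for Cyp2c38. At week 4 all HFD livers lay below all CD livers for Cyp2c39 (0.29 to 0.56 against 0.62 to 2.85 FPKM). Cyp2c38 had a ratio of 0.873 there, with the diets overlapping. At week 8 Cyp2c39 had 0.49, 0.34, 0.09 and 0.32 FPKM in CD and 2.78, 2.01, 3.58 and 0.39 in HFD livers, so that again HFD217 was the low HFD liver. It reached the filter of 1 FPKM in 4 livers at weeks 12, 16 and 24 and passed in none of them, with values of 0.36, 0.38 and 0.28. The 2 genes correlated over the 48 livers with r = 0.80, and with r = 0.81 after subtraction of the group means. Summed, they had 12.5 FPKM on CD and 61.7 on HFD at week 8. The opposite direction to Cyp2c29 stands beside a share of 0.5% of Cyp2c29 windows that recur in another copy. Per liver, the ratio of Cyp2c38 to Cyp2c29 was between 0.0112 and 0.057 on CD and between 0.0312 and 0.612 on HFD.

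**Figure D3:**
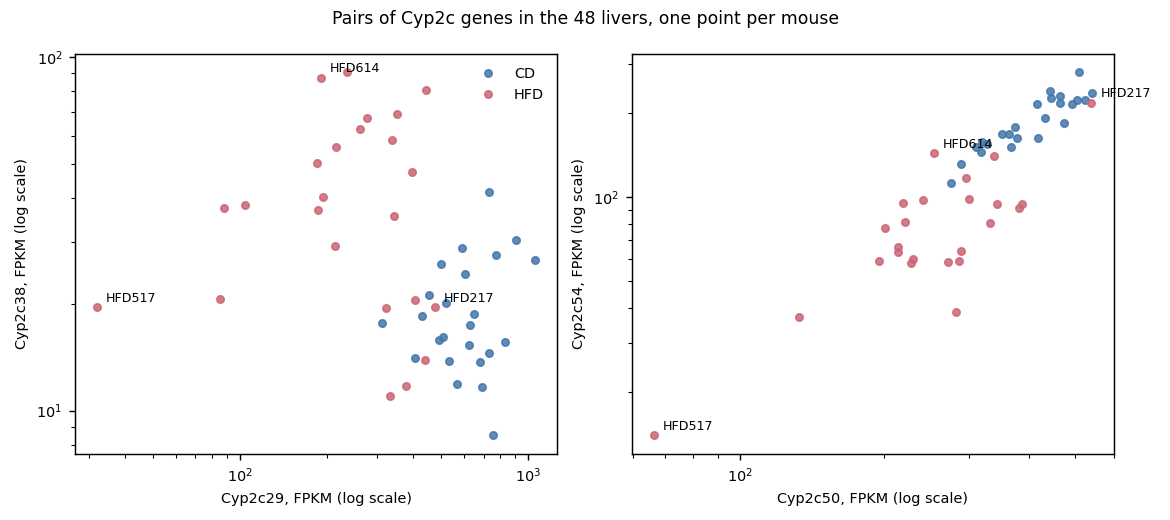
FPKM of Cyp2c38 against Cyp2c29 (left) and of Cyp2c54 against Cyp2c50 (right), all axes logarithmic, 1 point per liver of the 48 mice, CD blue and HFD red, with the 3 HFD livers that stood apart named. HFD livers lie mostly at lower Cyp2c29 and mostly at higher Cyp2c38, with overlap of the diets since all weeks are pooled. Cyp2c54 and Cyp2c50 rise and fall together in both diets.

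Cyp2c44, an epoxygenase coded outside the cluster, overlapped between the diets at week 4, with 116, 110, 100.5 and 97.9 FPKM on CD and 100.5, 135, 136 and 105.2 on HFD. At week 20 it had 157, 176, 153 and 120 FPKM on CD and 62.0, 90.8, 60.3 and 75.0 on HFD. From week 8 on each HFD liver was below each CD liver of its week. It fell at weeks 8 (-1.19, adjusted p = 0.043), 12 (-0.69, adjusted p = 0.017), 16 (-0.92, adjusted p = 0.0057) and 20 (-1.07, adjusted p = 0.010). The week 24 value was -0.87 (adjusted p = 0.13). Its CD level was itself uneven, with a mean of 106.1 FPKM at week 4 and 237 at week 8. The week 8 call was lost without any liver but HFD217, that of week 12 without CD307 or HFD318, and week 24 passed in the fit of all 12 groups (adjusted p = 0.015).

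Cyp2c70, which makes muricholic acids, the hydrophilic bile acids of mice, from chenodeoxycholic acid, had CD levels from 73.8 to 688 FPKM. At week 8 it had 258, 498, 284 and 546 FPKM on CD and 61.0, 71.2, 50.04 and 143 on HFD, and it fell by 2.32 (SE 0.37, adjusted p = 0.010). At week 12 it had 325, 103.7, 81.6 and 110 FPKM on CD and 144, 123, 155 and 161 on HFD, and the value was 0.13 (adjusted p = 0.84). The groups were apart, with HFD lower, at weeks 8, 20 and 24 and overlapped in the other 3. In the last 2 weeks the values were -1.69 (adjusted p = 0.099) and -1.18 (adjusted p = 0.074). Week 20 passed in the fit of all 12 groups (adjusted p = 0.0061) and without HFD518 (adjusted p = 0.021), and week 24 passed without HFD614 (-1.43, adjusted p = 0.0064).

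Cyp2c40 and Cyp2c55, both known for hydroxylating arachidonic acid, were scarce. Cyp2c40 had 11.2, 5.58, 7.96 and 10.8 FPKM on CD and 0.87, 0.21, 0.52 and 0.50 on HFD at week 20, where it fell by 2.67 (SE 0.21, adjusted p = 0.00060). It also passed as lower at weeks 8 (-1.78, adjusted p = 0.013) and 16 (-1.48, adjusted p = 0.00021). Its near-copy Cyp2c69 had 7.10, 2.20, 3.74 and 4.11 FPKM on CD and 0.38, 0.12, 0.08 and 0.11 on HFD at week 20 and fell there too (-2.10, adjusted p = 0.0045). Cyp2c67 and Cyp2c68, which share many windows with Cyp2c40, had 47.4 to 239 and 55.8 to 128 FPKM in CD livers, and the sum of the 4 copies overlapped between the diets in every week, with ratios of the means from 0.584 to 1.07. Cyp2c55 was tested at week 8 only, with 1.12, 2.32, 1.49 and 2.38 FPKM on CD and 0.91, 0.73, 0.57 and 0.23 on HFD (-0.80, adjusted p = 0.036). This call was lost in 6 of 8 leave-outs of 1 liver (all but CD203 and HFD217) and with no filter (adjusted p = 0.061). Cyp2c40 at weeks 8, 16 and 20, Cyp2c69 at week 20 and Cyp2c55 at week 8 met the filter through CD livers alone. Every HFD liver was then below 1 FPKM, so these genes could be tested only where CD was high.

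A set of 3 HFD livers stood apart on these genes. HFD517 of week 20 had the lowest level of the 48 livers for Cyp2c29 (32.0 FPKM), Cyp2c37 (19.6), Cyp2c50 (66.2) and Cyp2c54 (14.02). HFD217 of week 8 was the opposite, with the highest HFD values for Cyp2c29 (475 FPKM), Cyp2c37 (238), Cyp2c50 (540) and Cyp2c54 (218) and the lowest Cyp2c38 level of the HFD livers of its week, 19.6 FPKM against at most 14.5 in CD. HFD614 of week 24 had 4.85 FPKM of Cyp2c40 and 87.5 of Cyp2c38, against 0.14 to 0.73 and 20.7 to 38.1 in the other HFD livers of that week. With all 3 left out, 8 genes fell and 2 rose in the mean effect, and the values stayed close to those above, -1.32 for Cyp2c29 and 0.98 for Cyp2c38. Because these livers were picked by their Cyp2c values, the narrower spread without them is no independent evidence.

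**Figure D4:**
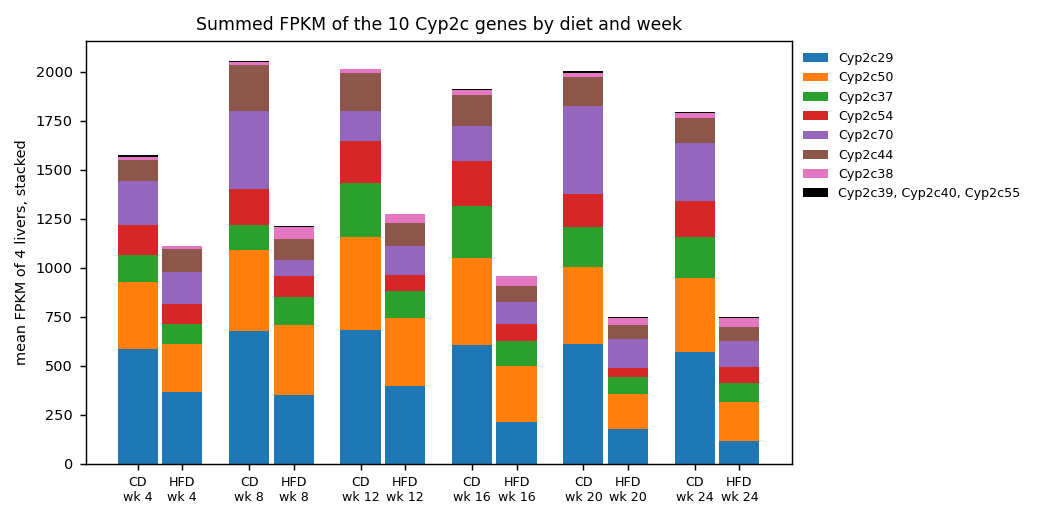
Mean FPKM of the 10 Cyp2c genes stacked for 4 livers per bar (vertical axis from 0), with CD and HFD side by side at each week on the diet. The CD bars reach 1573 to 2056 FPKM and the HFD bars 747 to 1276 FPKM.

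Summed over the 10 genes, CD livers had 1573 ± 121 FPKM (SD, n = 4) at week 4 and 1795 FPKM at week 24, and HFD livers 1113 and 748 FPKM. The ratio of the means was 0.708, 0.589, 0.633, 0.503, 0.373 and 0.417 from week 4 to week 24, and the diets overlapped at week 8 alone. Of the FPKM of all 15 Cyp2c genes, Cyp2c29 made up 29.3% on average on CD and 21.8% on HFD, Cyp2c38 0.948% and 3.70%, and Cyp2c67, which did not pass in the mean effect (-0.23, adjusted p = 0.061), 6.33% and 9.89%. Of the 5 other Cyp2c genes Cyp2c68 (-0.45, adjusted p = 0.0036) and Cyp2c69 (-1.07, adjusted p = 6.9e-09) fell, and Cyp2c65 and Cyp2c66 were too low to be tested. Cyp2c69 met the filter through CD livers, since only HFD113 (1.07 FPKM) and HFD614 (1.6) reached 1 FPKM on HFD.

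On CD alone, the change over the weeks, fitted as a line and given per 20 weeks, passed for Cyp2c55 (-0.44, SE 0.14, adjusted p = 0.018), against 28.3% of all genes in either direction and 12.6% that fell. Without CD606 none of the 10 passed, and without HFD517 Cyp2c37 passed as well. The value of Cyp2c29 was -0.22 (adjusted p = 0.63) and that of Cyp2c38 0.63 (adjusted p = 0.16). Age and anything else that differed between the livers of different weeks cannot be told apart here.

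The genes that serve the enzymes were read beside them. Of 7 electron donors and epoxide hydrolases, 3 rose in the mean effect and none fell, near the 35.8% of all genes that rose: Ephx2, the soluble epoxide hydrolase that clears epoxyeicosatrienoic acids (0.21, adjusted p = 0.0052), Pgrmc1 (0.16, adjusted p = 0.0050) and Cyb5b (0.21, adjusted p = 0.040). Por had -0.24 (SE 0.22, adjusted p = 0.40). Of 8 other epoxygenases and arachidonate hydroxylases 2 rose and 2 fell, against 35.8% and 6.78% of all genes. Among them were Cyp4a14, a fatty acid hydroxylase (1.19, adjusted p = 0.0062), and Cyp2j9 (-0.54, adjusted p = 0.00048).

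Of 13 regulators of Cyp2c transcription 2 rose and none fell in the mean effect, against 35.8% and 6.78% of all genes. Those that rose were Ppara, the fatty acid receptor (0.35, adjusted p = 0.00024), and Nr3c1, the glucocorticoid receptor (0.14, adjusted p = 0.034). Hnf4a had -0.15 (SE 0.07, adjusted p = 0.075), Nr1i3, which codes for CAR, -0.06 (SE 0.13, adjusted p = 0.75) and Nr1i2, which codes for PXR, -0.09 (SE 0.07, adjusted p = 0.32). Transcript levels say nothing of the activity of these receptors.

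Of 18 tested genes on the list of CAR and PXR targets, 4 rose and 5 fell in the mean effect. Of all genes 35.8% rose and 6.78% fell, and these shares belong beside each count in this paragraph. Cyp3a11, the main drug-oxidising enzyme of the Cyp3a family, fell by 1.25 (SE 0.16, adjusted p = 9.0e-08) and Gsta2, a glutathione transferase, by 1.08 (adjusted p = 1.3e-06), whereas Cyp2b9 rose by 4.21 (SE 0.25, adjusted p = 1.2e-15) and Cyp2b13 by 1.55 (adjusted p = 2.0e-07). Cyp2b10, the usual read-out of CAR, had -0.04 (SE 0.12, adjusted p = 0.80). Whether the rise of Cyp2b9 and Cyp2b13 depends on CAR or PXR was not tested. Of 16 growth hormone and sex-biased liver genes 3 rose and 5 fell, with the male-biased Hsd3b5 (-2.70, adjusted p = 7.2e-06) and Cyp4a12b (-1.17, adjusted p = 0.00027) lower and the female-biased Cyp2a4 (1.42, adjusted p = 8.4e-06) higher. Of 9 genes of bile acid synthesis, which supply the substrate of Cyp2c70, 3 fell and 1 rose, and Cyp7a1, its rate-limiting enzyme, had -0.20 (SE 0.41, adjusted p = 0.73).

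As a description, the genes outside the subfamily whose log2(FPKM + 1) followed each member most closely over the 48 livers were looked up, with diet and week left in. Ces1c, a carboxylesterase, came first for Cyp2c29 (r = 0.82), Cyp2c37 (r = 0.78) and Cyp2c50 (r = 0.80), and after subtraction of group means these were 0.78, 0.86 and 0.75. Ces2a, another carboxylesterase, came first for Cyp2c44 (r = 0.80) and Cyp2c54 (r = 0.79). For Cyp2c38 the closest were 2 transporters, Slc16a7 (r = 0.92) and Slc22a27 (r = 0.88), and for Cyp2c39 they were Nqo1 (r = 0.77) and Rdh16 (r = 0.76). Cyp2c40 came nearest to Avpr1a (r = 0.68), Cyp2c55 to Gstm6 (r = 0.80) and Cyp2c70 to C8b (r = 0.71). After the same subtraction r was 0.42 for Cyp2c44 and 0.49 for Cyp2c54 with Ces2a, 0.82 and 0.79 for the pair of Cyp2c38, 0.67 and 0.60 for that of Cyp2c39, 0.33 for Cyp2c40, 0.69 for Cyp2c55 and 0.48 for Cyp2c70.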

How the data were processed

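Liver and islet RNA of the same mice was sequenced on the BGISEQ-500 after poly(A) selection, from RNA chosen for high integrity. Per the labels the submitters' processing notes name HISAT2 2.0.4, Bowtie2 2.2.5, RSEM 1.1.12, DESeq2 and the build GRCm38.p5. The deposited table holds FPKM per gene and library with 2 decimals, made by the authors before deposit, and no counts, so read depth is unknown from the files used here. Its columns of group averages, log2 ratios, p and q values and cluster or module labels are the authors' own comparisons and were not used. Of 21990 genes 1835 had no values.

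Each week, log2(FPKM + 1) of 4 HFD and 4 CD livers was compared with limma 3.58.1 (R 4.3.3; trend and robust variances) over genes that reached 1 FPKM in 4 or more livers, with Benjamini-Hochberg adjustment over all genes of the week and a threshold of 0.05. A pooled limma fit of 48 livers in 12 groups gave the mean HFD effect, early (weeks 4, 8 and 12) minus late weeks, the diet by week interaction and the change over weeks in CD. All tests were two-sided. Groups and weeks came from the labels. Scripts were tested on simulated data. Coding sequences came from GENCODE transcripts and start sites from RefSeq (GRCm38.p6), compared with Biopython 1.88. Near-identical genes were grouped by coding sequence where a protein comparison had been planned. Genes named were the 10 members, the other Cyp2c genes, fixed lists and the 2 most correlated genes per member. The members and lists were chosen with earlier results of these data known. Alternatives tried were a pseudocount of 0.1, no filter, median ratio scaling, 1 fit of all groups, limma without trend and robust variances, a minimum fold change and leaving out each library. A gene of the list of transcription regulators is not reported here and is left out of that list's count.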

Additional observations from a re-analysis of the deposited data

Results flagged for a closer look

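In groups of 4 livers, 11 of the 120 combinations of gene, diet and week had 1 liver far from the other 3 by Dixon's criterion. For independent, normally distributed values chance alone gives about 1 in 20. The combinations share livers among correlated genes and FPKM was not transformed, so the count is no test against that rate. HFD livers gave 5 of them. Cyp2c54 was 218 FPKM in HFD217 at week 8 against 58.6 to 80.6 in the others, 38.8 FPKM in HFD313 at week 12 against 91.3 to 94.9, and 14.02 FPKM in HFD517 at week 20 against 59.1 to 63.6. HFD614 at week 24 had 4.85 FPKM of Cyp2c40 against 0.14 to 0.73 and 3.66 FPKM of Cyp2c39 against 0.92 to 1.16.

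The other 6 were CD livers. CD106 at week 4 had 9.99 FPKM of Cyp2c40 against 2.46 to 3.54, and 419 FPKM of Cyp2c50 against 311 to 327. Cyp2c40 was 2.52 FPKM in CD308 at week 12 against 1.26 to 1.30. Cyp2c37 was 301 FPKM in CD407 at week 16 against 250.2 to 258, and Cyp2c29 was 905 FPKM in CD608 at week 24 against 430 to 497. Cyp2c70 was 325 FPKM in CD304 at week 12 against 81.6 to 110.

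Outside the liver comparison, Cyp2c38 was measured in all 48 islet libraries, at a median of 13.2 FPKM (4.42 to 21.1).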

How the results depend on the processing

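The planned settings other than leaving out a library gave 462 single values. Of these, 443 counted as the same, 10 lost and 8 gained the threshold, and 1 reversed (Cyp2c37 at week 8, -0.0099 under median ratio scaling). The same meant direction and side of the threshold for log2 values, and side of the threshold for F values of the interaction. Ratios of summed FPKM have no threshold and counted as the same when they shifted by less than their spread. Among these ratios, that of Cyp2c40, Cyp2c67, Cyp2c68 and Cyp2c69 at week 12 turned from 1.07 to 0.987 under median ratio scaling. That scaling moved the week 12 median of all genes from 0.11 to 0.01. The number of the 10 genes that passed at week 12, 5 as reported, was 3 with no filter, which tests more genes, 2 in 1 fit of all 12 groups and 1 with a minimum fold change. In the fit of all 12 groups, which tested all 10 genes in each week, the number was 8 at week 20 and 3 at week 24. A pseudocount of 0.1 gave 1 gene for the interaction. With HFD217, HFD517 and HFD614 left out, chosen after seeing the data, 1 gene passed for early against late weeks, 5 for the interaction and 2 for the change in CD, and the early minus late value of Cyp2c38 was 0.16. The cause was not tested for these. Leaving out 1 library in turn gave 0 to 0 genes at week 4, 2 to 8 at week 8, 1 to 7 at week 12, 5 to 7 at week 16, 2 to 4 at week 20, 0 to 3 at week 24, 9 to 10 for the mean effect, 0 to 0 for early minus late, 0 to 4 for the interaction and 0 to 2 for the change in CD. Signs turned for Cyp2c37 at week 8 (-0.25 to 0.32), Cyp2c70 at week 12 (-0.094 to 0.57) and Cyp2c39 at week 24 (-0.017 to 0.41), for early minus late of Cyp2c38 (-0.13 to 0.13) and Cyp2c55 (-0.033 to 0.073), and for the CD change of Cyp2c40 (-0.082 to 0.53), Cyp2c50 (-0.088 to 0.11) and Cyp2c54 (-0.089 to 0.17). No paired analysis was possible because CD and HFD mice share no replicate number. Depth is unknown, so genes near 1 FPKM are the least certain.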

Other observations

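In the islets Cyp2c38 was the only one of the 10 genes with 1 FPKM or more in every library. Its group means were 10.6, 17.8, 6.64, 15.7, 18.1 and 13.9 FPKM in CD and 9.42, 14.5, 6.12, 13.8, 9.96 and 13.7 in HFD from week 4 to week 24, and no test was run. The islet medians of the other 9 genes were at most 0.025 FPKM, with a highest single value of 1.05 FPKM for Cyp2c29. The acinar enzyme gene Amy2a5 had a median of 6634 FPKM in the same islet libraries (1018 to 57147), and its part in the Cyp2c38 level was not tested.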
